A study of Homo sapiens with 8 samples.

Results

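The mRNAs described here encode the enzymes and regulators of polyamine metabolism. They are ODC1, AMD1, SRM, SMS, OAZ1, OAZ2, AZIN1, SAT1, SMOX, and PAOX, which were taken by gene symbol from the 57756 genes listed in the deposited tables. No cutoff on their values was used, but earlier results of these data were known when they were chosen. All 10 were found once each, and all 10 had enough counts to be tested. The study immunoprecipitated RPS6, ribosomal protein S6 of the small subunit, and sequenced the RNA that came down with it (RIP) beside the input RNA of the same cell line. Cell lines of hepatocellular carcinoma (Hep3B), colorectal cancer (HCT116), prostate cancer (DU145), and pancreatic cancer (SW1990) were used, and each contributed 1 RIP and 1 input library, which makes 8. No treatment was labelled, and no control antibody library is analysed here. For the liver line, titles point to Hep3B while the cell line field says Huh7, and Hep3B is used as its name here.

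Polyamines (putrescine, spermidine, and spermine) are small positively charged molecules that bind RNA and ribosomes, and proliferating cancer cells make them in quantity. ODC1 and AMD1 start the synthesis, SRM and SMS complete spermidine and spermine, and SAT1, SMOX, and PAOX lead back to putrescine. The pathway is controlled largely at translation. Polyamines cause the ribosomal frameshift that yields antizyme from OAZ1 and OAZ2 mRNA, antizyme sends ODC1 protein to the proteasome, and AZIN1 protein captures antizyme. Translation of ODC1, AMD1, and SAT1 also responds to polyamine levels.

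Fragments numbered between 35796276 and 54209269 per input library (median 41320194) and between 34630231 and 42610124 per RIP library (median 37641212). The summed FPKM (fragments per kilobase of transcript, scaled to library depth) of the Hep3B input was 1659970, the highest of all libraries. The 4 inputs, from 884796 to 1659970, all exceeded the 4 RIP libraries, from 620262 to 690141, and the part of this difference in the FPKM ratios of RIP to input was not tested. All 8 hepatocyte genes checked had at least 1 FPKM in both Hep3B libraries, with summed levels of 7223 FPKM in the input and 14417 FPKM in the RIP, against 1.05 to 41.4 FPKM in the libraries of the other cell lines. Those genes do not tell Hep3B from Huh7 cells. The other lists did not single out their cell line. Of 6 pancreatic duct genes, 5 had at least 1 FPKM in the SW1990 input and 5 in the HCT116 input, and their summed level was 307 FPKM in the SW1990 input, 418 FPKM in the DU145 input, and 618 FPKM in the HCT116 input. Within this list, PDX1 was highest in SW1990 cells (12.7 FPKM in the input, 5.10 FPKM in RIP), against at most 1.28 FPKM in the other cell lines. Among inputs, SOX9 was also highest in SW1990 cells, KRT7 and MUC1 in DU145 cells, KRT19 in HCT116 cells, and CFTR in Hep3B cells. Of 6 intestinal genes, CDX2 alone reached 1 FPKM in HCT116 libraries, while 4 did in SW1990 libraries. The prostate genes KLK3, KLK2, and ACPP were listed at 0 in both DU145 libraries. Each of the 4 general epithelial genes was above 1 FPKM in all 8 libraries.

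Most polyamine mRNAs formed a smaller share of the RPS6 RIP RNA than of the input RNA. The mRNAs of AMD1, OAZ1, OAZ2, AZIN1, SAT1, and SMS were lower in RIP, those of SMOX and PAOX were higher, and those of ODC1 and SRM did not pass the test. Estimated counts were compared by edgeR's quasi-likelihood test, with cell lines as blocks and Benjamini-Hochberg adjustment over 19921 genes, and a gene was called at an adjusted p-value under 0.05. Of the 10 genes, 6 were called lower, where 24.9% of all genes tested were called lower, and 2 were called higher, where 26.5% were. The median log2 fold change of RIP against input was -1.01 over the 10 genes, -0.05 over all genes tested, and 0.13 over 13564 protein-coding genes among them. Among the 5 genes whose translation is known to depend on polyamines (AMD1, ODC1, OAZ1, OAZ2, and SAT1), 4 were called lower, and among the other 5 genes 2 were. P-values measure the spread over 4 cell lines with 1 pair each, since no cell line has a replicate. Within a library a lower share of an mRNA and a higher share of other RNAs cannot be told apart, and between cell lines fewer expressing cells and less RNA per cell cannot be told apart either.

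**Figure D1:**
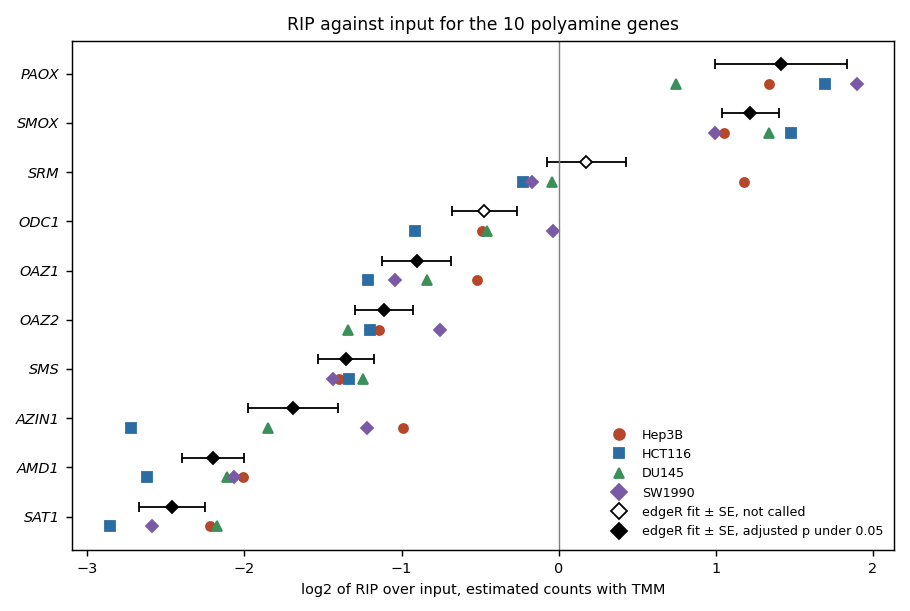
Ratio of RIP to input of the 10 polyamine genes (rows) on the log2 scale of estimated counts with TMM scaling (horizontal axis). Coloured symbols are the 4 cell lines, and diamonds with bars are the edgeR fold change ± its standard error, filled where called. Of the 10 genes, 6 lie left of 0 and are called, SMOX and PAOX lie right of 0, and the Hep3B value of SRM stands apart from those of the other cell lines.

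Without the block for cell line, edgeR called only AMD1 (adjusted p = 0.0161) and OAZ2 (adjusted p = 0.0467) lower and no polyamine gene higher. At the same adjusted threshold, that fit called 6.75% of all genes lower and 7.16% higher. At an unadjusted p-value under 0.05, 6 polyamine genes were lower and 0 higher. No share over all genes is given for that looser threshold, so these 2 counts cannot be set against a background. With limma on log2(FPKM + 1), the same 6 polyamine genes were called lower and the same 2 higher, where 18.4% and 25.2% of all genes were. ODC1 joined them as a lower gene with TMM on protein-coding genes alone, where 30.6% of those genes were lower and 28.6% higher. It did so too with scaling on total counts, where 32.0% of all genes were lower and 19.5% higher, and where SMOX was the 1 polyamine gene called higher. For the FPKM ratios of the 4 cell lines, an exact two-sided permutation test by sign flips gave p = 0.125 for each of the 8 genes called above, which is the smallest p that 4 pairs allow.

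AMD1 encodes S-adenosylmethionine decarboxylase, which supplies the aminopropyl groups of spermidine and spermine (hg19 chr6:111195972-111216916). Its mRNA fell from 157 FPKM in the input to 65.7 FPKM in the RIP of Hep3B cells, from 114 to 28.7 FPKM in HCT116 cells, from 75.5 to 23.9 FPKM in DU145 cells, and from 141 to 38.3 FPKM in SW1990 cells. The 4 RIP values all lay under the 4 input values, with no overlap. From counts, the log2 fold change was -2.20 (standard error, SE, 0.20, adjusted p = 1.59e-05, edgeR's quasi-likelihood test), a 4.60-fold decrease. The mean log2 ratio of (FPKM + 1) was smaller in size, -1.67 ± 0.31 (SD, n = 4). The AMD1 leader is known for a short upstream reading frame at which ribosomes stall when polyamines are abundant. That frame is printed in capitals from the RefSeq sequence after the AMD1 transcription start (GRCh38.p14, chr6:110874792-110874820, plus strand), with 4 bases on either side, because it is the element through which ribosome occupancy of this mRNA is known to be regulated.
AMD1 upstream frame: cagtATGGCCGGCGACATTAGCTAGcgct
It has 7 codons with the stop, 21 bases. It was found as ATG followed in frame by TAA, TAG, or TGA within the 50 bases after the start, in 2 of the 3 AMD1 start windows. Of all 35116 start windows in the RefSeq table, 10.2% hold such a complete frame, and none of the windows of the other polyamine genes in the table does. RIP counts do not show where on the mRNA a ribosome sits.

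ODC1 encodes ornithine decarboxylase, which makes putrescine (hg19 chr2:10580093-10588630). Its level was 58.7 FPKM in the input and 58.9 FPKM in the RIP of Hep3B cells, 199 and 178 FPKM in HCT116 cells, 161 and 129 FPKM in DU145 cells, and 300.0 and 354 FPKM in SW1990 cells. Input and RIP overlapped widely, and the cell lines kept the same order in both, with Hep3B lowest and SW1990 highest. On the FPKM scale the mean log2 ratio was -0.06 ± 0.24 (SD, n = 4), with 2 cell lines higher and 2 lower in RIP (p = 0.75 in the exact permutation test). On the count scale ODC1 was lower in 4 of 4 cell lines, with a log2 fold change of -0.47 (SE 0.21, adjusted p = 0.0819, edgeR's quasi-likelihood test). Its adjusted p-value ranged from 0.0121 to 0.818 over the alternatives, and ODC1 was called lower by DESeq2 (-0.46, adjusted p = 0.0300), with a mean of at least 50 counts (-0.53, adjusted p = 0.0416), without the SW1990 pair (-0.62, adjusted p = 0.0453), with TMM on protein-coding genes alone (-0.67, adjusted p = 0.0152), and with scaling on total counts (-0.82, adjusted p = 0.0121).

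SRM encodes spermidine synthase, which adds an aminopropyl group to putrescine (hg19 chr1:11114640-11120081). Its level was 30.2 FPKM in the input and 62.6 FPKM in the RIP of Hep3B cells, 97.9 and 75.2 FPKM in HCT116 cells, 117 and 106 FPKM in DU145 cells, and 253 and 231 FPKM in SW1990 cells. Hep3B cells had the lowest input level and were the only cell line with more SRM mRNA in RIP. Over the 4 pairs the log2 fold change was 0.18 (SE 0.25, adjusted p = 0.587, edgeR's quasi-likelihood test), and without the Hep3B pair it was -0.24 (adjusted p = 0.327). Its direction also turned with scaling on total counts (-0.18) and with TMM on protein-coding genes alone (-0.02).

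SMS encodes spermine synthase, the enzyme after SRM (hg19 chrX:21958690-22025798). It fell from 112 to 50.7 FPKM in Hep3B cells, from 197 to 86.0 FPKM in HCT116 cells, from 75.1 to 36.4 FPKM in DU145 cells, and from 198 to 86.7 FPKM in SW1990 cells. The cell lines lay closer together in this ratio than in that of any other polyamine gene, with log2 FPKM ratios between -1.18 and -1.03 and a mean of -1.13 ± 0.07 (SD, n = 4). Absolute levels in input and RIP overlapped, because the inputs differed by 2.64-fold among themselves. From counts, its log2 fold change was -1.35 (SE 0.18, adjusted p = 0.000118, edgeR's quasi-likelihood test), a 2.56-fold decrease.

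ODC1 and SRM are both known targets of MYC, a transcription factor that binds the letters CACGTG. Their 30-base stretches around this motif are printed because, of the polyamine genes with a window, only ODC1 and SRM held it. Both mRNAs were lowest in the Hep3B input and highest in the SW1990 input, and neither was called between RIP and input. Whether MYC has a part in these levels was not tested. The motif, which reads the same on both strands, is in capitals (RefSeq, GRCh38.p14, minus strand).
SRM, chr1:11060200-11060229, before the start: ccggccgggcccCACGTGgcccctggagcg
ODC1, chr2:10448024-10448053, before the start: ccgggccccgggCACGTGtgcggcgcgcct
ODC1, chr2:10447990-10448019, after the start: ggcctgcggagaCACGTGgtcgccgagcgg
Windows ran from 250 bases before to 50 bases after each RefSeq start, and 7 of the 10 genes had at least 1 window in the table. CACGTG occurred in 1 of 2 ODC1 windows, in the only SRM window, and in none of those of AMD1, OAZ1, OAZ2, SAT1, and SMS. It occurs in 7.26% of all 35116 windows. A match is a description of letters only, and binding was not measured in these data.

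**Figure D2:**
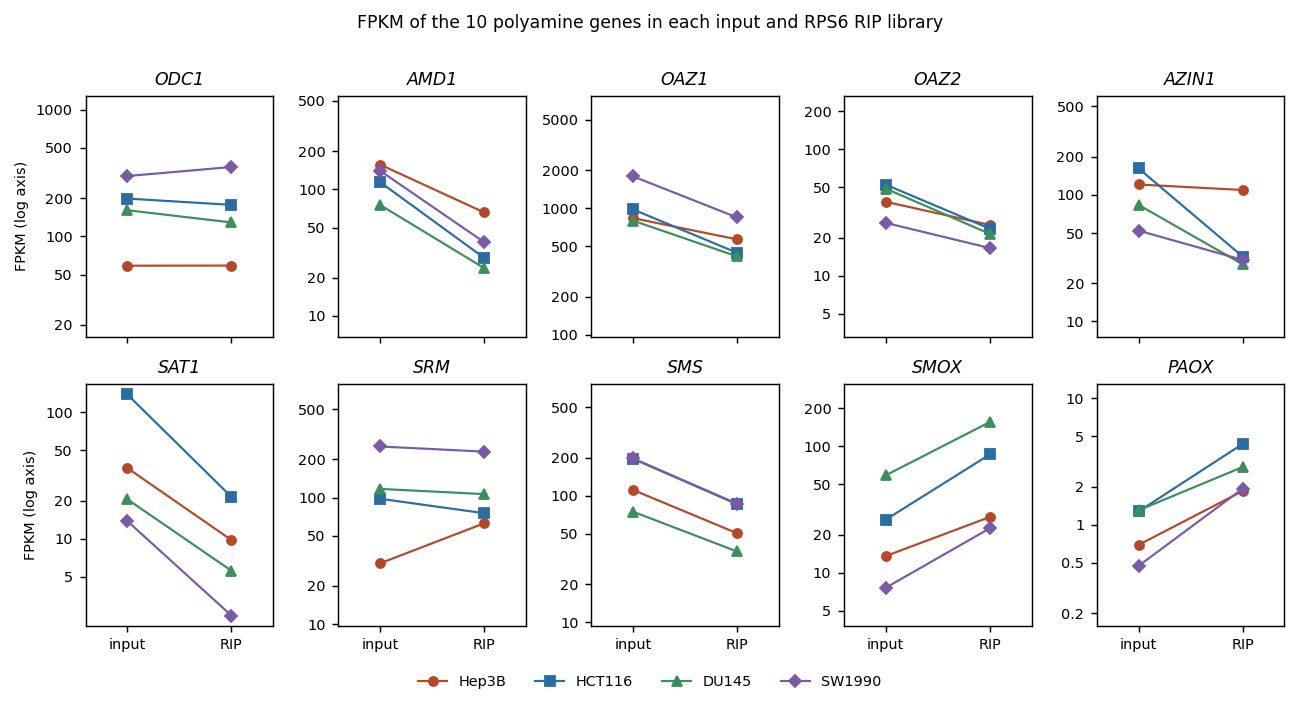
FPKM (log axis, with a range of its own in each panel but the same fold span) of each polyamine gene in the input and the RIP library of each cell line, joined by a line per cell line. AMD1, OAZ1, OAZ2, AZIN1, SAT1, and SMS slope down and SMOX and PAOX slope up in all 4 cell lines, while SRM rises in Hep3B cells alone, from 30.2 to 62.6 FPKM.

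OAZ1 encodes the main antizyme and was the most abundant polyamine mRNA in every library (hg19 chr19:2252250-2273487). It fell from 836 to 568 FPKM in Hep3B cells, from 981 to 445 FPKM in HCT116 cells, from 799 to 416 FPKM in DU145 cells, and from 1788 to 846 FPKM in SW1990 cells. The RIP value of SW1990 cells lay above the lowest inputs, so the groups overlapped although each pair moved down. OAZ1 had a log2 fold change of -0.90 (SE 0.22, adjusted p = 0.00566, edgeR's quasi-likelihood test), a 1.87-fold decrease, and the FPKM ratio gave -0.93 ± 0.26 (SD, n = 4).

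OAZ2 encodes a second antizyme, made by the same frameshift (hg19 chr15:64979771-65011801). It fell from 38.4 to 25.2 FPKM in Hep3B cells, from 52.4 to 23.5 FPKM in HCT116 cells, from 48.8 to 21.4 FPKM in DU145 cells, and from 26.1 to 16.5 FPKM in SW1990 cells. No RIP value reached the lowest input value. OAZ2 had a log2 fold change of -1.11 (SE 0.19, adjusted p = 0.00059, edgeR's quasi-likelihood test), a 2.16-fold decrease. The FPKM of OAZ1 was between 16.4 and 68.4 times that of OAZ2 in the inputs and between 18.9 and 51.2 times in the RIP libraries.

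AZIN1 encodes the antizyme inhibitor, a relative of ODC1 protein without its enzyme activity (hg19 chr8:103838584-103990104). Its level was 121 FPKM in the input and 109 FPKM in the RIP of Hep3B cells. It fell from 162 to 32.5 FPKM in HCT116 cells, from 83.4 to 28.3 FPKM in DU145 cells, and from 52.2 to 30.6 FPKM in SW1990 cells. The RIP levels of the latter 3 cell lines lay close together, and that of Hep3B cells was more than any of them and overlapped with the inputs. AZIN1 had the widest spread of ratios of the 10 genes, with log2 FPKM ratios from -2.28 in HCT116 cells to -0.14 in Hep3B cells and a mean of -1.18 ± 0.93 (SD, n = 4). The log2 fold change from counts was -1.69 (SE 0.28, adjusted p = 0.000633, edgeR's quasi-likelihood test), a 3.23-fold decrease, and ranged from -2.02 to -1.35 when each cell line was left out in turn.

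SAT1 encodes spermidine/spermine acetyltransferase, the first step of polyamine breakdown and export (hg19 chrX:23801289-23804343). It fell from 36.3 to 9.79 FPKM in Hep3B cells, from 139 to 21.5 FPKM in HCT116 cells, from 20.6 to 5.60 FPKM in DU145 cells, and from 13.9 to 2.48 FPKM in SW1990 cells. Inputs differed by 10.0-fold between cell lines, the widest range of the 10 genes, so the RIP value of HCT116 cells lay above the inputs of DU145 and SW1990 cells. SAT1 had a log2 fold change of -2.46 (SE 0.21, adjusted p = 1.47e-05, edgeR's quasi-likelihood test), a 5.50-fold decrease and the largest among the 10 genes. The SW1990 RIP value rests on 62 fragments, and every other library held at least 125.

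SMOX encodes spermine oxidase, which turns spermine back into spermidine (hg19 chr20:4101626-4168394). It rose from 13.5 to 27.5 FPKM in Hep3B cells, from 26.2 to 85.9 FPKM in HCT116 cells, from 58.7 to 155 FPKM in DU145 cells, and from 7.59 to 22.4 FPKM in SW1990 cells. The order of the cell lines was the same in input and RIP, with DU145 highest and SW1990 lowest, and the 2 groups overlapped. For SMOX the log2 fold change was 1.22 (SE 0.18, adjusted p = 0.000279, edgeR's quasi-likelihood test), a 2.33-fold increase, and the FPKM ratio gave 1.37 ± 0.29 (SD, n = 4).

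PAOX encodes the peroxisomal oxidase of acetylated polyamines, which acts after SAT1. It rose from 0.693 to 1.85 FPKM in Hep3B cells, from 1.27 to 4.35 FPKM in HCT116 cells, from 1.30 to 2.86 FPKM in DU145 cells, and from 0.473 to 1.93 FPKM in SW1990 cells. All RIP values lay above all input values. For PAOX the log2 fold change was 1.41 (SE 0.42, adjusted p = 0.0168, edgeR's quasi-likelihood test), a 2.67-fold increase, but the call was lost without the HCT116 pair (1.32, adjusted p = 0.0947), without the SW1990 pair (1.26, adjusted p = 0.0545), and with scaling on total counts (1.06, adjusted p = 0.0611), within a range of adjusted p from 0.000566 to 0.218 over all alternatives. PAOX had 29 to 221 fragments per library and the largest SE of the 10 genes. The tables place it in a locus on hg19 chr10:135192694-135382916 that 12 listed genes share, among them MTG1, whose estimated count reached 5310% of that of PAOX. Whether the counting used strand is not stated, and reads of overlapping genes could have been divided between them.

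**Figure D3:**
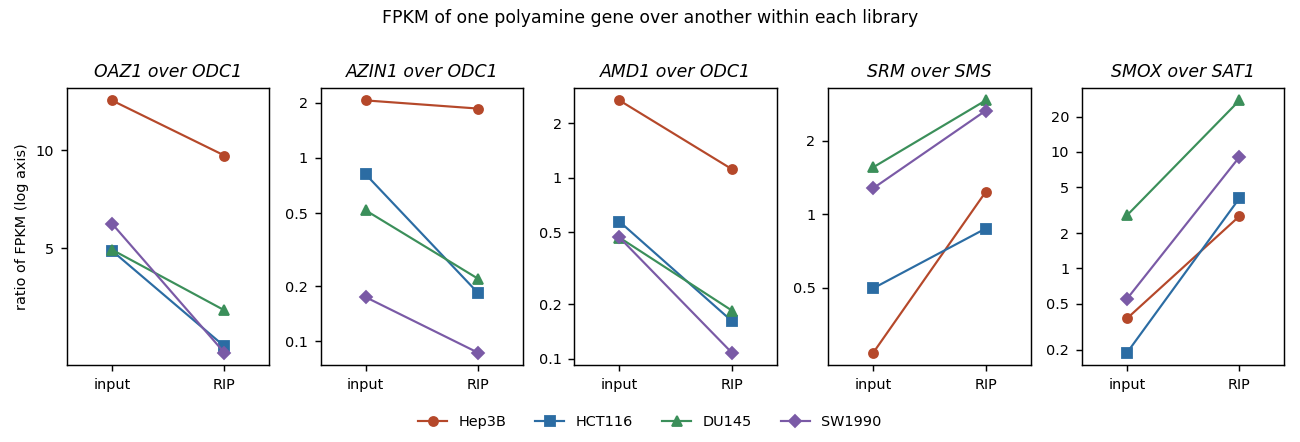
FPKM of one polyamine gene over that of another within the same library (log axis, with a range of its own in each panel) for input and RIP, joined by a line per cell line. OAZ1, AZIN1, and AMD1 fall relative to ODC1, and SRM rises relative to SMS and SMOX relative to SAT1, in all 4 cell lines, for example from 0.189 to 4.01 for SMOX over SAT1 in HCT116 cells.

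Ratios of 2 genes within a library do not depend on a scaling factor of the library, but they do depend on whether FPKM or counts are used. The ratio of OAZ1 to ODC1, antizyme mRNA against its target, fell from 14.2 in the input to 9.64 in the RIP of Hep3B cells, from 4.92 to 2.50 in HCT116 cells, from 4.96 to 3.23 in DU145 cells, and from 5.96 to 2.39 in SW1990 cells. OAZ1 stayed the more abundant mRNA per length in all 8 libraries. On the log2 scale these decreases were -0.56, -0.98, -0.62, and -1.32, while estimated counts gave -0.03, -0.30, -0.39, and -1.01 in the same order of cell lines, so that in Hep3B cells the change was close to 0 from counts. The ratio of AZIN1 to ODC1 fell from 2.06 to 1.86 in Hep3B cells, from 0.814 to 0.183 in HCT116 cells, from 0.518 to 0.219 in DU145 cells, and from 0.174 to 0.0866 in SW1990 cells. AMD1 over ODC1 fell from 2.68 to 1.12, from 0.574 to 0.162, from 0.468 to 0.185, and from 0.469 to 0.108 in the same order of cell lines. From counts, the log2 change of AZIN1 over ODC1 lay between -1.81 and -0.50 and that of AMD1 over ODC1 between -2.03 and -1.52, also lower in 4 of 4 cell lines. On the FPKM scale, Hep3B cells had more AMD1 and AZIN1 than ODC1 mRNA in both libraries, and in the other cell lines ODC1 exceeded both.

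The ratio of SRM to SMS rose in RIP in every cell line, from 0.271 to 1.24 in Hep3B cells, from 0.498 to 0.874 in HCT116 cells, from 1.56 to 2.93 in DU145 cells, and from 1.28 to 2.66 in SW1990 cells. From counts, its log2 change lay between 1.11 and 2.58. SMOX over SAT1 rose from 0.372 to 2.81 in Hep3B cells, from 0.189 to 4.01 in HCT116 cells, from 2.85 to 27.7 in DU145 cells, and from 0.548 to 9.05 in SW1990 cells, and its log2 change from counts lay between 3.27 and 4.34. In all 4 RIP libraries SMOX exceeded SAT1, and in the inputs it did so in DU145 cells alone. These ratios were compared after the single genes had been seen and carry no test of their own.

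In the input libraries, OAZ1 had a mean of 1101 ± 465 FPKM (SD, n = 4), followed by ODC1 (180 ± 99.7), SMS (145 ± 61.9), SRM (125 ± 93.5), AMD1 (122 ± 35.6), AZIN1 (105 ± 47.5), SAT1 (52.4 ± 58.3), OAZ2 (41.4 ± 11.8), SMOX (26.5 ± 22.8), and PAOX (0.935 ± 0.416). Between neighbours in this order, OAZ1 was above ODC1, AZIN1 above SAT1, and SMOX above PAOX in 4 of 4 inputs. For the other neighbours the order did not hold in at least 1 cell line, and SAT1 was above OAZ2 in HCT116 cells alone. Without the HCT116 input the SAT1 mean was 23.6 FPKM, without the DU145 input the SMOX mean was 15.8 FPKM, and without the SW1990 input the SRM mean was 81.7 FPKM. Between cell lines the input level varied least for OAZ2 and AMD1, by 2.08-fold or less, and by 5.11-fold for ODC1, 7.74-fold for SMOX, and 8.38-fold for SRM. In the RIP libraries OAZ1 kept the highest mean, 569 ± 196 FPKM, and SMOX, at 72.7 ± 62.0 FPKM, exceeded SAT1, at 9.83 ± 8.31 FPKM, and OAZ2, at 21.6 ± 3.75 FPKM, in 4 of 4 cell lines.

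The size of the decrease depended on the scale for some genes. The estimated count per FPKM follows the effective length that the counting assigned to a gene. Its log2 change from input to RIP was centred on the median change of each cell line over 10707 genes. These genes had at least 1 FPKM in all libraries. A shift below 0 is therefore one below the median gene, and not always a decrease as such. The mean shift was -0.34 for AMD1 and -0.33 for AZIN1, and below the median in 4 of 4 cell lines for both. Of the 10707 genes, 8.31% had a lower value than AMD1 and 8.70% a lower value than AZIN1. ODC1 had -0.25 (below the median in 3 of 4 cell lines), OAZ1 0.19, and SRM 0.25 (both above it in 4 of 4). The largest shift of AZIN1 was in Hep3B cells, -0.59, where its log2 ratio was -0.99 from counts and -0.14 from FPKM. For SAT1, SMS, OAZ2, SMOX, and PAOX the mean shift was between -0.06 and 0.00. Whether the shift comes from transcript isoforms was not tested.

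**Figure D4:**
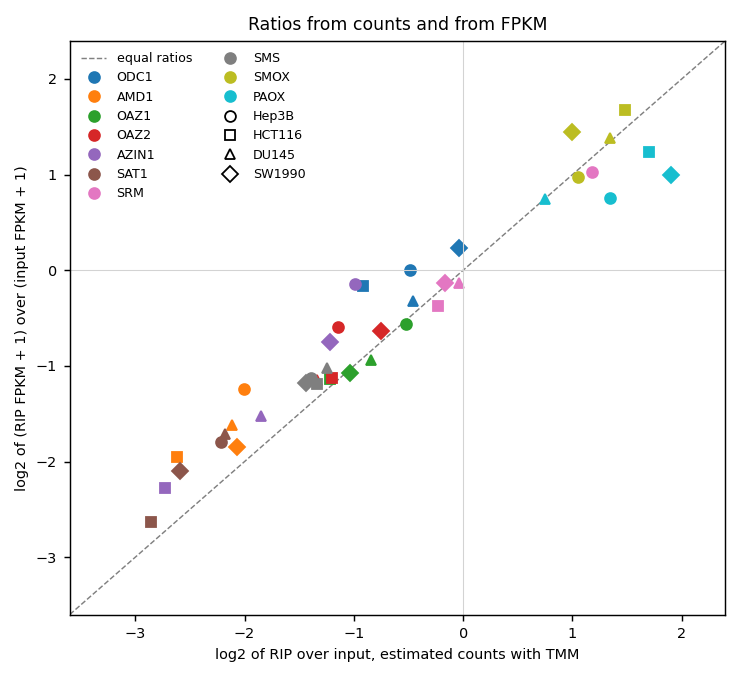
Log2 ratio of RIP to input from (FPKM + 1) (vertical axis) against that from estimated counts with TMM scaling (horizontal axis), with a point per polyamine gene (colour) and cell line (symbol) and a dashed line of equal ratios. Points keep to the same side of 0 on both scales except ODC1 in Hep3B and SW1990 cells, and most of the lower genes, such as AZIN1 in Hep3B cells at -0.99 and -0.14, lie above the line.

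Among 9073 genes with a mean of at least 10 FPKM, the 5 whose profile over the 8 libraries was most like that of ODC1 were DFFA, ACTR3B, F3, TYMS, and HEBP1. Likeness was the mean absolute difference of log2(FPKM + 1) after each gene's own mean was subtracted, and it was 0.19 for DFFA, 0.21 for ACTR3B and for F3, 0.24 for TYMS, and 0.27 for HEBP1. TYMS, the enzyme that makes thymidylate for DNA synthesis, ran from 64.2 FPKM in the input and 57.3 FPKM in the RIP of Hep3B cells to 556 and 540 FPKM in SW1990 cells. SRM was the most similar polyamine gene, at rank 54 with 0.36, followed by OAZ1 at rank 1182 with 0.67. SMS, OAZ2, AMD1, SMOX, AZIN1, and SAT1 ranked between 1833 and 7870, and PAOX was under the minimum and not ranked. The 8 libraries are 4 pairs, so this describes likeness over few independent samples.

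Other genes that feed, use, or carry polyamines were read from a list of 34, of which 30 had enough counts. RIP was higher for 8 of the 30 and lower for 7, beside the 26.5% and 24.9% of all genes tested, and 15 were not called. Their median log2 fold change was 0.14. ATP13A2, which exports polyamines from lysosomes, had 6.77 to 30.4 FPKM in the inputs and 59.3 to 207 FPKM in RIP, without overlap (2.75, adjusted p = 1.37e-05, edgeR's quasi-likelihood test). SLC3A2, a chain of amino acid transporters that has also been linked to polyamine export, had 66.0 to 105 FPKM in the inputs and 272 to 383 FPKM in RIP (1.86, adjusted p = 2.61e-05). DOHH, which completes hypusine, the spermidine-derived residue of eIF5A, had 16.1 to 20.8 FPKM in the inputs and 64.4 to 78.8 FPKM in RIP (1.73, adjusted p = 4.32e-05). AHCY, which clears S-adenosylhomocysteine, had 74.4 to 197 FPKM and 217 to 376 FPKM (1.36, adjusted p = 0.000436). The other genes called higher were GOT1, AGMAT, DHPS, and SLC47A1.

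In the other direction, EIF5A2, a second gene for the hypusine-bearing factor, had 7.67 to 29.7 FPKM in the inputs and 2.04 to 8.16 FPKM in RIP (-2.43, adjusted p = 3.32e-05, edgeR's quasi-likelihood test). Its abundant relative EIF5A, at 679 to 1274 FPKM in the inputs and 857 to 1369 FPKM in RIP, was not called (0.19, adjusted p = 0.580). The methionine salvage enzyme APIP fell by 2.24 (adjusted p = 3.91e-05), and MAT2B, the regulatory subunit of S-adenosylmethionine synthesis, fell by 1.67 (adjusted p = 0.00022). SATL1, named for its likeness to SAT1, was called lower (-1.88, adjusted p = 0.0424) on at most 0.653 FPKM per library. The salvage enzymes ENOPH1, ADI1, and MTAP were the remaining genes called lower. SAT2, the paralog of SAT1, had 0.136 FPKM in the Hep3B input and was listed at 0 in the Hep3B RIP, against 20.5 to 45.7 FPKM in the other 6 libraries, a pattern chosen for mention after its values were seen.

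**Figure D5:**
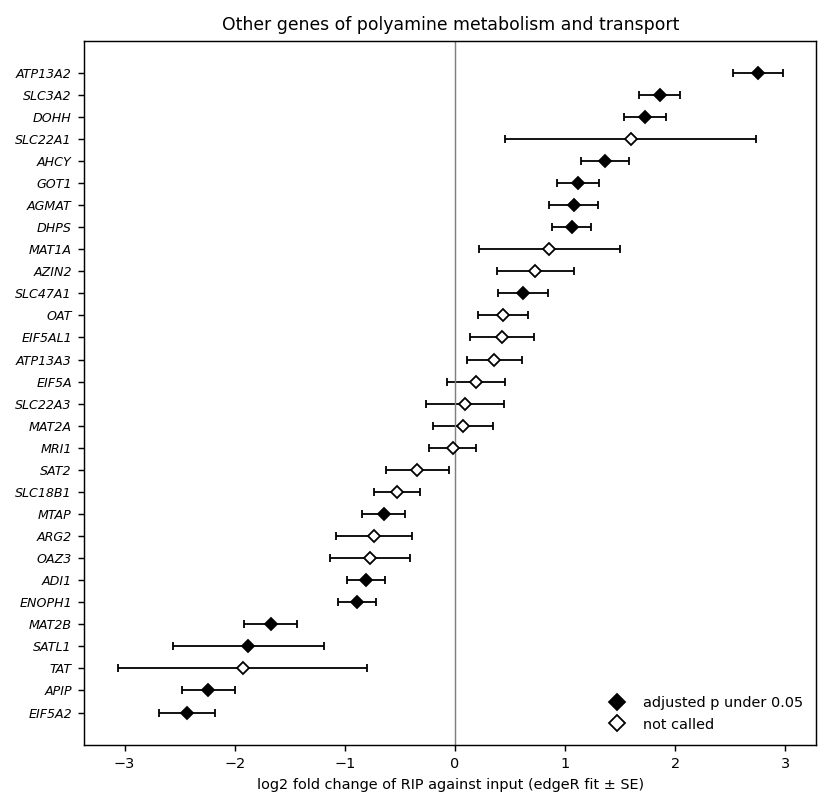
Log2 fold change of RIP against input ± its standard error from the edgeR fit (horizontal axis) for the 30 tested genes of the list of polyamine supply, use, and transport (rows), filled where called. ATP13A2 is at the top with 2.75 and EIF5A2 at the bottom with -2.43, with 8 filled points right of 0 and 7 left of it.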

How the data were processed

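Per the paper's methods and the submitters' processing notes, reads were aligned to human genome version 19 (hg19) with TopHat2 2.0.9, and CASAVA 1.8 is named. The counting tool, the annotation release, and filters are not given in the sources used here. Libraries came from a stranded total RNA kit. The authors deposited an FPKM value, normalized for length and depth, and an estimated count per gene and library, scaled with 1 factor for each library. They also deposited fold changes, p-values, and q-values of each RIP library against its input, which were not used.

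Raw counts had been planned for. The deposited estimated counts were therefore rounded, and edgeR 4.0.16 in R 4.3.3 was applied to them (quasi-likelihood test, TMM, cell line as a block, mean of at least 10 counts, Benjamini-Hochberg adjustment, threshold 0.05). The cell line pairs the libraries by design, and over 19921 genes deviations from the group means had r between 0.80 and 0.87 for RIP and input of 1 cell line, and r of at most -0.01 across cell lines. Deviations from a mean cancel out over the cell lines, so the low r across cell lines is in part built in and does not test the pairing. FPKM ratios were taken as log2 of (RIP FPKM + 1)/(input FPKM + 1), which understates the change of weakly expressed genes, and their signs flipped in an exact permutation test. Division by the step of each library turned estimated counts into fragments and made between 91.8% and 93.8% of values whole within a tolerance of 0.01 fragments or a relative 1e-05, whichever was larger. Depth refers to these fragments, which are not independent molecules. The edgeR fit with the block was also run on simulated counts. It recovered 39.4% of genes given a log2 change of 1 in size and 66.0% of those given 2. Of its 111 calls, 4 were false, so many true changes of this size were missed.

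Alternatives left out the block or each cell line in turn, used DESeq2 1.42.0, no minimum or a mean of at least 50 counts, the recovered fragments, or limma 3.58.1 on log2(FPKM + 1) and log2(FPKM + 0.1), and, added after the values were seen, scaling on total counts and protein-coding genes alone. Python 3.11.15, NumPy 2.4.6, pandas 2.3.3, and matplotlib 3.10.9 were used for the rest. Sequences and gene classes came from RefSeq tables of GRCh38.p14, and gene positions in hg19 from the deposited tables. The genes, the lists, and the tests were chosen with earlier results of these data known. Genes named by rule are the 10 polyamine genes, up to 4 called genes in each direction of the related list, and the 5 genes most like ODC1. The other called genes of the related list, EIF5A, SAT2, and MTG1 were named after their values were seen, and marker genes come from the lists of the check of labels. Some marker genes are not reported here.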

Additional observations from a re-analysis of the deposited data

Results flagged for a closer look

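The levels and ratios of the 10 polyamine genes gave 40 groups of 4 values, which were searched for a cell line far from the others, and 2 such values were found. Chance flags about 1 in 20 groups of this kind, which is about as many as were found. The groups are not independent, since the levels and ratios of a gene come from the same libraries. The AZIN1 level in the Hep3B RIP library was 6.79 as log2(FPKM + 1), well above those of the other 3 RIP libraries. The ratio of RIP to input of SRM from counts was 1.18 on the log2 scale in Hep3B cells, while the other cell lines had values from -0.23 to -0.04. On the FPKM scale the log2 ratio of SRM was 1.03 in Hep3B cells and below 0 in the other 3 cell lines, the opposite direction. That difference was not tested, since each cell line has 1 pair. Both values are from Hep3B cells. The summed FPKM was 1659970 in the Hep3B input, the highest of all libraries. In the Hep3B RIP library it was 688722, between those of other RIP libraries. The AZIN1 value is a level in the RIP library, and the SRM values are ratios of RIP to input. The part of either library in these values was not tested.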

How the results depend on the processing

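Over 13 alternatives for each of the 10 polyamine genes, 126 of 130 recomputed fold changes had the same direction and 112 also the same side of the threshold. Without the block that pairs RIP and input by cell line, 0 polyamine genes were higher and 2 lower. The log2 fold changes that then missed the threshold were -0.92 for OAZ1, -1.69 for AZIN1, -2.64 for SAT1, -1.37 for SMS, 1.32 for SMOX, and 1.39 for PAOX, SRM turned to -0.016, and the counts were 3 higher and 2 lower of the related genes and 1427 and 1344 of all genes. ODC1 became a call with DESeq2 (-0.46), a mean of at least 50 counts (-0.53), total counts (-0.82), and protein-coding genes alone (-0.67). SRM turned to -0.18 with total counts and to -0.018 with protein-coding genes alone, and PAOX was not called with total counts (1.06), which left 1 polyamine gene higher. Leaving out each cell line in turn gave 1 to 2 polyamine genes higher and 6 to 7 lower. Over all genes, of which these fits tested 19325 to 19987, they gave 4448 to 4808 higher and 4084 to 5083 lower. The log2 fold changes then ran from -0.62 to -0.32 for ODC1, -0.24 to 0.32 for SRM, and 1.26 to 1.64 for PAOX. Scaling on total counts moved the median of all genes from -0.05 to -0.40 and the share of calls that were higher from 51.6% to 37.9%. Relative to these medians, the directions of the 8 called genes were the same. With limma on log2(FPKM + 1) the median was 0.08. The mean log2 FPKM ratio moved to -1.25 for SMS when centred on protein-coding genes and to 1.47 for PAOX with a pseudocount of 0.1. With 4 pairs, a gene that was not called may still differ. The cause of these shifts was not tested.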
